A study of Homo sapiens with 18 samples.

Results

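The apolipoprotein L (APOL) family is described here by 5 genes, APOL1, APOL2, APOL3, APOL4 and APOL6, out of 58050 gene identifiers in the table. The members were chosen by measured values of these data: the family was picked because APOL1 stood much higher with guide 395 than with the control guide in parental cells. The parental guide difference of the 5 genes is therefore given as a description, with no test. Tests of the members compare only libraries of the other cells, though the parental libraries enter the shared estimate of spread and the filter on low values. Other genes were also called in the parental contrast. As that contrast chose the family, those calls are no separate evidence about its members. All 5 were in the table. APOL1, APOL2, APOL3 and APOL6 had reads in every library, while APOL4 passed the filter on low values with exactly 3 libraries at or above 10.

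RNA was sequenced from KNS-42, an established glioma cell line that in every group expressed the Cas9 nuclease. Parental cells, cells overexpressing DDX3X (DDX3Xoe) and cells overexpressing DDX3Y (DDX3Yoe) each received a lentiviral guide RNA, either 395, which targets DDX3X, or AAVS1, a control guide, and RNA was taken on day 7. Each of the 6 groups had 3 libraries. All cells were kept in medium with puromycin, and the labels do not say whether a group's libraries came from separate cultures or whether a line was 1 clone, so p-values measure the spread between these libraries, which may be technical. Expression is given as reads on a gene divided by a size factor of the library, called normalised reads below, from libraries that capture the 3' ends of polyadenylated RNA. In such bulk samples a change in the number of responding cells and a change in RNA per cell cannot be told apart.

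APOL genes encode proteins that act on lipid membranes. APOL1 is secreted and carried on high-density lipoprotein. It forms the pore that lyses trypanosomes and is known for kidney risk alleles. APOL2, APOL3 and APOL6 stay inside the cell. APOL3 is known as an interferon-induced protein that attacks the membrane of bacteria in the cytosol, and APOL6 as a protein with a BH3-like stretch that can promote cell death. Interferons bind receptors whose JAK kinases phosphorylate STAT proteins, and STAT and IRF factors then switch on interferon-stimulated genes, to which several APOL genes belong. DDX3X and its Y-linked counterpart DDX3Y are RNA helicases of the DEAD-box family.

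On GRCh38 with GENCODE 29 the 5 genes lie on chromosome 22 within 619.136 kb. APOL6 (ENSG00000221963) spans chr22:35648395-35668409 on the plus strand, apart from the others. The other four stand close together after a gap of 471.92 kb: APOL3 (ENSG00000128284) at chr22:36140330-36166177, APOL4 (ENSG00000100336) at chr22:36189124-36204840 and APOL2 (ENSG00000128335) at chr22:36226203-36239954 on the minus strand, and APOL1 (ENSG00000100342) at chr22:36253010-36267530 on the plus strand. The gaps between these were 22.946, 21.362 and 13.055 kb. All are protein-coding and none is overlapped by another annotated gene. Since family members resemble each other, the last 500 bases of their annotated transcripts were compared for shared stretches of 50 bases. APOL1 shared 14 of 2212 such stretches with APOL2 or APOL3 (0.633%), APOL2 shared 3 of 2122, APOL3 shared 9 of 3986, and APOL4 and APOL6 shared none with another member.

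The libraries held 5667609 to 13201602 reads on genes, and 3 reads, the limit that a count of 0 allows, corresponded to 2.01 to 4.29 normalised reads. These limits cover counting error only. DDX3X itself, the gene that guide 395 targets, had 1811 ± 100 normalised reads (SD, n = 3) with AAVS1 and 886 ± 58.8 with 395 in parental cells, and 1458 ± 90.5 against 757 ± 114 in DDX3Yoe cells. In DDX3Xoe cells the libraries with AAVS1 had 668, 1504 and 1162, and those with 395 had 1416, 716 and 578, in the order of their replicate numbers. The libraries labelled DDX3Xoe replicate 1 thus ran against their labels under both guides, and the results for DDX3Xoe cells are followed by their values without that pair. The tags lie near the 3' end of the transcript and need not cover the edited site, and reads from the codon-optimised transgenes were not separated here.

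In parental cells with guide 395, 4 of the 5 APOL genes stood above the control guide in every library, and APOL4 stood below it. APOL1 had 29.5, 57.1 and 210.9 normalised reads in the 3 parental libraries with AAVS1. With guide 395 it had 909.9, 519.4 and 910.5. The groups did not overlap, although the AAVS1 libraries themselves differed widely. The means were 99.2 ± 97.7 and 780 ± 226 (SD, n = 3 each), a ratio of 7.87, and the log2 difference of normalised reads plus 1 was 3.39 with a standard error of 0.83.

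APOL3, the intracellular antibacterial member, had the pattern nearest to that of APOL1. Its AAVS1 libraries held 11.4, 17.4 and 102.6 normalised reads and its 395 libraries 451.9, 227.3 and 274.3. The third AAVS1 library was the high one for both genes. The means of APOL3 were 43.8 ± 51.0 and 318 ± 118, with a ratio of 7.25 and a log2 difference of 3.41 (SE 0.81).

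APOL6, the member linked to cell death, had 529.0, 305.1 and 971.7 normalised reads with AAVS1 and 1738.0, 1258.2 and 2154.8 with 395. Its means were 602 ± 339 and 1717 ± 449, a ratio of 2.85, and the log2 difference was 1.63 (SE 0.62). APOL2, a cytoplasmic member of less settled function, had 294.7, 232.0 and 300.1 with AAVS1 and 1143.7, 391.5 and 493.3 with 395. Here the AAVS1 libraries lay close together, and 1 library with 395 lay far above the other two. The mean of APOL2 went from 276 ± 37.9 to 676 ± 408, a ratio of 2.45, with a log2 difference of 1.14 (SE 0.37) that was 0.68 without the first 395 library.

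APOL4 was close to the limit of detection, with 0 to 18 reads per library over all 18 libraries. In parental cells it had 10, 9 and 3 reads with AAVS1 and 1, 2 and 2 reads with 395, or 7.07 ± 3.92 and 1.64 ± 0.665 normalised reads. The 395 libraries were all at or under 3 reads. Its log2 difference was -1.52 (SE 1.02), and it depended on how low values were treated: it was -0.81 with 5 added to each value instead of 1 and -2.13 in DESeq2 on the recovered reads.

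**Figure D1:**
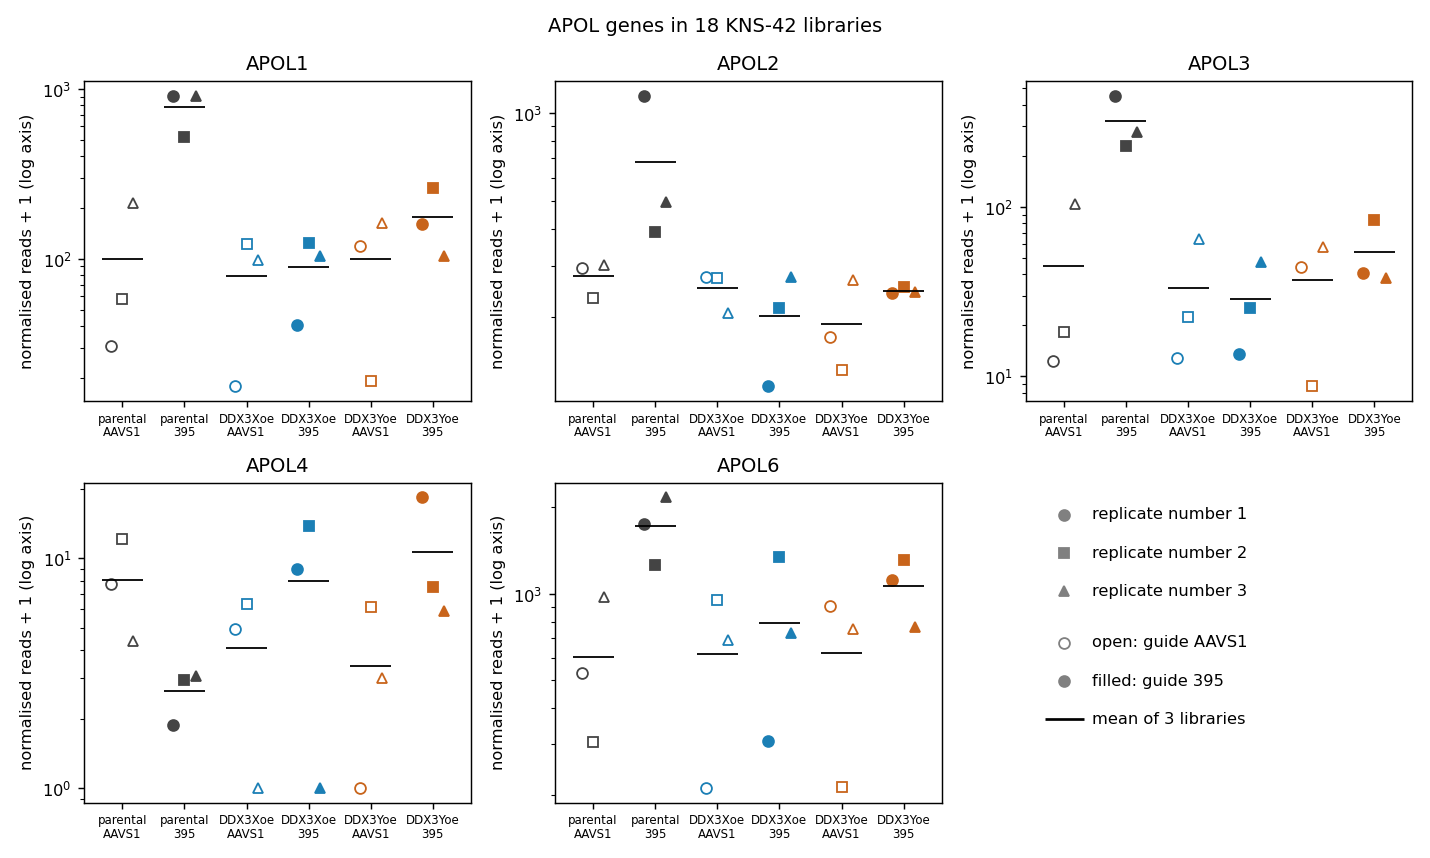
Normalised reads plus 1 (log axis) of each APOL gene in the 18 libraries, by cells and guide on the horizontal axis; symbols give the replicate number, open symbols guide AAVS1, filled symbols guide 395, and lines the mean of 3 libraries. APOL1, APOL2, APOL3 and APOL6 are higher in all 3 parental libraries with guide 395 than in those with AAVS1, while both guides overlap in DDX3Xoe and DDX3Yoe cells.

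Of all 15228 genes tested, 10.7% were higher and 9.86% lower with no overlap between the parental guide groups. The 4 APOL genes that were higher and the 1 that was lower stand beside those shares, and nothing is read from them because this contrast chose the family. By same-numbered parental libraries the log2 difference of APOL1 was 4.90, 3.16 and 2.11, that of APOL3 was 5.19, 3.64 and 1.41, and that of APOL6 was 1.71, 2.04 and 1.15. The pair numbered 3, with the high AAVS1 library, gave the smallest of the 3 differences for each of these genes. For APOL2 the pairs gave 1.95, 0.75 and 0.72.

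Under the control guide the APOL levels of the 3 kinds of cells overlapped. APOL1 averaged 99.2 ± 97.7 in parental, 77.9 ± 54.3 in DDX3Xoe and 99.1 ± 73.4 normalised reads in DDX3Yoe cells. APOL6 averaged 602 ± 339, 617 ± 375 and 622 ± 362 in the same order. The means of either gene differed by less than the SD within a group, and no difference with parental cells was tested.

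Under guide 395 the parental cells stood above the overexpressing cells in the mean for APOL1, APOL2, APOL3 and APOL6. Parental APOL1 was 8.81 times its mean in DDX3Xoe cells and 4.48 times that in DDX3Yoe cells, with no overlap of libraries. For APOL3 the ratios were 11.4 and 5.98 and for APOL2 3.36 and 2.75, again with no overlap. APOL6 was 2.17 and 1.62 times higher in the mean, and its libraries overlapped with those of both lines. Parental APOL4 went the other way, on few reads, at 0.24 times its mean in DDX3Xoe and 0.17 times that in DDX3Yoe cells. Its libraries overlapped with those of DDX3Xoe cells and not with those of DDX3Yoe cells. Without the library labelled DDX3Xoe 395 replicate 1 the ratios to DDX3Xoe cells were 6.91 for APOL1, 8.97 for APOL3 and 2.76 for APOL2, without overlap. They were 1.66 for APOL6 and 0.26 for APOL4, with overlap. Ordered over the 6 groups, parental cells with 395 were highest for APOL1, APOL2, APOL3 and APOL6 and lowest for APOL4. Neighbours further down the order overlapped for every member. These ratios use the libraries that chose the family and were not tested. The share of all genes without overlap in these comparisons was not determined, so nothing is read from the lack of overlap.

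In DDX3Xoe cells none of the 5 APOL genes passed the test for guide 395. APOL1 had 16.7, 120.4 and 96.7 normalised reads with AAVS1 and 40.0, 122.9 and 102.7 with 395. The library labelled replicate 1 was the low one under either guide. The log2 difference was 0.44 (95% interval -1.30 to 2.18; limma adjusted p = 1.00), and without the pair labelled replicate 1 it was 0.058. APOL6 had 210.8, 950.1 and 691.5 with AAVS1 and 308.3, 1340.4 and 728.8 with 395, a log2 difference of 0.37 (-0.92 to 1.67), or 0.29 without that pair.

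APOL3 had 11.8, 21.3 and 63.6 normalised reads with AAVS1 and 12.6, 24.3 and 46.5 with 395 in DDX3Xoe cells, so the order of the libraries was the same under both guides. Its log2 difference was -0.06 (-1.76 to 1.64), and -0.13 without the pair. APOL2 had 273.8, 271.6 and 205.7 with AAVS1 and 115.3, 214.3 and 274.8 with 395. The difference of -0.39 (-1.17 to 0.40) became 0.038 without the pair. The lowest APOL2 value of all 18 libraries was in the library labelled DDX3Xoe 395 replicate 1. APOL4 had 3.9, 5.3 and 0 against 8.0, 12.9 and 0, with a difference of 0.67 (-1.49 to 2.82), or 0.57 without the pair. Leaving out the library labelled DDX3Xoe AAVS1 replicate 1 alone turned the differences of APOL1 and APOL6 to -0.43 and -0.27.

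In DDX3Yoe cells all 5 APOL genes had higher means with guide 395, and none passed the test. APOL1 had 117.8, 18.1 and 161.3 normalised reads with AAVS1 and 159.0, 260.6 and 102.4 with 395. The groups overlapped, and the second AAVS1 library lay far below the rest. The means were 99.1 ± 73.4 and 174 ± 80.2, and the log2 difference was 1.19 (95% interval -0.55 to 2.93; limma adjusted p = 1.00). APOL6 had 902.4, 212.9 and 750.4 with AAVS1 and 1114.7, 1309.5 and 764.5 with 395, a difference of 0.98 (-0.31 to 2.28).

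The same AAVS1 library was the lowest of its group for APOL2 and APOL3 too. APOL3 had 43.1, 7.7 and 57.1 normalised reads with AAVS1 and 39.7, 82.5 and 37.2 with 395, a log2 difference of 0.85 (-0.86 to 2.55). APOL2 had 170.5, 131.6 and 266.5 against 241.4, 253.0 and 243.4, a difference of 0.44 (-0.35 to 1.22). Without DDX3Yoe AAVS1 replicate 2 the differences fell to 0.23 for APOL1, 0.20 for APOL2, 0.00050 for APOL3 and 0.33 for APOL6. APOL4 had 0, 5.2 and 2.0 against 17.4, 6.5 and 4.9, or 0, 4 and 2 reads against 18, 6 and 7, with a difference of 1.82 (-0.33 to 3.97). APOL4 was thus lower with guide 395 in parental cells and higher in the mean in both overexpressing lines, all on few reads.

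**Figure D2:**
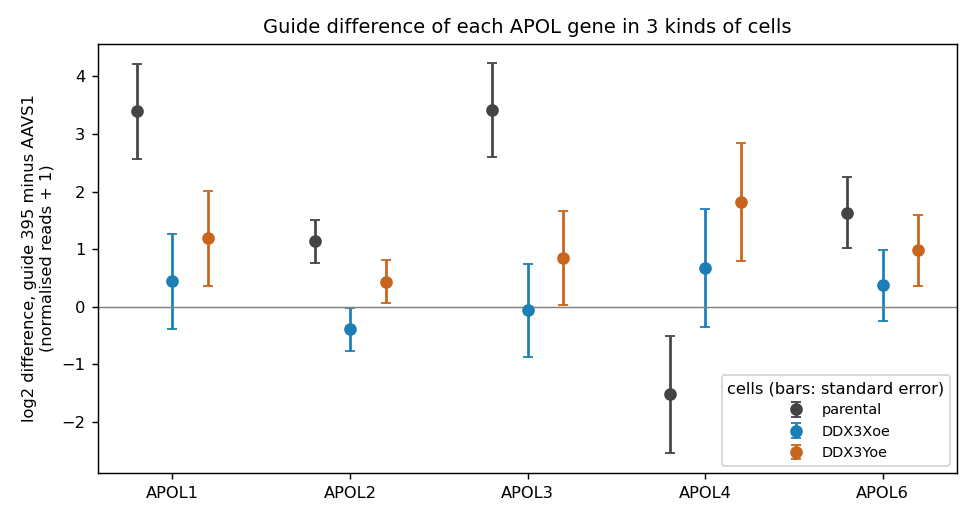
Log2 difference of normalised reads plus 1, guide 395 minus AAVS1, for each APOL gene in parental, DDX3Xoe and DDX3Yoe cells; points are fitted differences of 3 against 3 libraries and bars their standard errors. The parental points of APOL1 and APOL3 lie at 3.39 and 3.41, the highest plotted, and the parental APOL4 difference has the opposite sign to those in the other cells.

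No gene of the 15228 was called at a limma adjusted p under 0.05 in either overexpressing line, so the background was 0%, and the 0 called APOL genes are no result about the family. At an unadjusted p under 0.05 limma had 315 genes in DDX3Xoe and 153 in DDX3Yoe cells, and edgeR and DESeq2 on the recovered reads also called none. No APOL gene had guide groups without overlap in these lines, where 3.87% of genes did in DDX3Xoe and 7.49% in DDX3Yoe cells. The intervals were wide: that of APOL1 in DDX3Yoe cells ran from -0.55 to 2.93.

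DDX3Yoe and DDX3Xoe cells were compared directly to ask whether the guide difference depended on the line. Each helicase was supplied in its own line, so helicase and line cannot be told apart. The guide difference of APOL1 was 0.74 larger on the log2 scale in DDX3Yoe cells (95% interval -1.72 to 3.21). For APOL2 it was 0.82 larger (-0.28 to 1.93), for APOL3 0.91 (-1.51 to 3.32), for APOL4 1.16 (-1.88 to 4.20) and for APOL6 0.61 (-1.22 to 2.44). None passed, with a limma adjusted p of 1.00 for each, and 0 of all genes were called, 227 being under an unadjusted p of 0.05. Without the pair labelled DDX3Xoe replicate 1 the differences were 1.13 for APOL1, 0.40 for APOL2, 0.98 for APOL3, 1.26 for APOL4 and 0.70 for APOL6, none called. With all libraries the 5 APOL genes had the same sign, with a median of 0.82 against 0.015 over all genes, and 51.4% of all genes were above 0. Without DDX3Yoe AAVS1 replicate 2 they did not: APOL1 was at -0.21 and APOL6 at -0.039, beside 0.59 for APOL2, 0.061 for APOL3 and 1.77 for APOL4. The members share these libraries, so their signs are not independent observations.

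Under guide AAVS1 alone the DDX3Yoe minus DDX3Xoe difference was 0.27 for APOL1, -0.45 for APOL2, 0.09 for APOL3, -0.25 for APOL4 and 0.02 for APOL6. Without the library labelled DDX3Xoe AAVS1 replicate 1 all but APOL2 turned direction, to -0.60 for APOL1, -0.43 for APOL3, 0.073 for APOL4 and -0.63 for APOL6, and APOL2 was at -0.38. Under guide 395 the differences were 1.01 (-0.73 to 2.75) for APOL1, 0.37 for APOL2, 1.00 for APOL3, 0.91 for APOL4 and 0.63 for APOL6, all above 0. Without the pair labelled DDX3Xoe replicate 1 they were 0.52 for APOL1, 0.018 for APOL2, 0.55 for APOL3, 1.33 for APOL4 and 0.070 for APOL6. No gene was called in these 2 comparisons, with 136 and 350 genes under an unadjusted p of 0.05 by limma.

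APOL1, APOL3 and APOL4 varied more between libraries of one group than most genes did. The residual SD around the group means on the log2 scale was 1.19 for APOL1, 1.13 for APOL3, 1.25 for APOL4, 0.89 for APOL6 and 0.49 for APOL2, against a median of 0.51 over all genes tested. APOL1 exceeded 90.7% of genes in this respect and APOL2 47.8%. The libraries that set this spread were the same for several members. APOL1, APOL6 and APOL3 were lowest or next to lowest in DDX3Yoe AAVS1 replicate 2, and APOL1 and APOL6 also in the library labelled DDX3Xoe AAVS1 replicate 1.

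The variation shared with APOL1 was large for APOL3 and APOL6 and smaller for APOL2. Across the 18 libraries APOL1 and APOL3 had a Pearson r of 0.95, APOL1 and APOL6 0.92, and APOL1 and APOL2 0.72. After subtracting the group means, which removes the differences between guides and cells, r was 0.88 for APOL3, 0.89 for APOL6 and 0.41 for APOL2. In the 12 libraries of DDX3Xoe and DDX3Yoe cells alone APOL1 had an r of 0.87 with APOL3, 0.96 with APOL6 and 0.47 with APOL2. The median over all other genes was -0.030. By rank (Spearman) these 12 libraries gave lower values, 0.64 with APOL3, 0.85 with APOL6 and 0.24 with APOL2. APOL3 and APOL6 followed each other less closely than either followed APOL1. Their r was 0.72 after subtracting the group means. Over the 12 libraries it was 0.77, with a Spearman value of 0.41. APOL4 had an r of -0.28 with APOL1 over the 18 libraries and -0.035 over the 12, on few reads. These correlations are descriptions: libraries of a group share their cells and guide, and all genes of a library share its size factor.

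**Figure D3:**
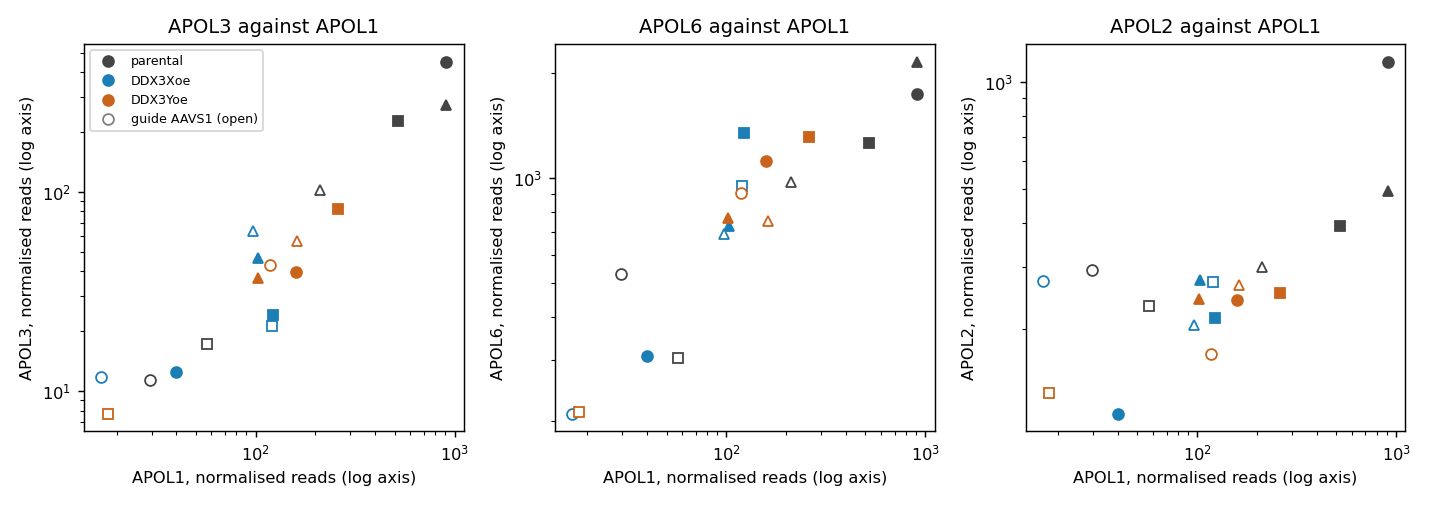
Normalised reads of APOL3, APOL6 and APOL2 against those of APOL1 (both axes logarithmic), 1 point per library, with colour for the cells, open symbols for guide AAVS1 and filled for 395, and shape for the replicate number. APOL3 and APOL6 tend to rise with APOL1 over the whole range, while APOL2 spreads more widely. Among the 12 libraries of the overexpressing lines APOL6 follows APOL1 more closely by rank than APOL3 does (Spearman 0.85 and 0.64).

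The genes outside the family whose pattern was most like that of APOL1, ranked by Pearson r of log2 values over the 18 libraries, were CCL5 (0.97), LGALS9 (0.97), ISG20 (0.96), PSMB9 (0.96) and IFIT2 (0.96). CCL5 is a chemokine, LGALS9 encodes galectin-9, ISG20 an antiviral exonuclease, PSMB9 a subunit of the immunoproteasome and IFIT2 an antiviral RNA-binding protein. Of 13544 tested genes with a proper symbol ranked in this way APOL3 stood at 6, APOL6 at 41 and APOL2 at 372. Ranked by deviations from the group means instead, the nearest were LGALS9 (0.97), SLC15A3 (0.97), CCL5 (0.96), UBE2L6 (0.95) and BATF2 (0.94), and APOL6 stood at 30, APOL3 at 37 and APOL2 at 2368. Both rankings include the parental libraries that chose the family, so these ranks are no separate evidence about its members. Ranks within the 12 libraries of the overexpressing lines were not determined. LGALS9 kept an r of 0.97 with APOL1 in the 12 libraries of the overexpressing lines, where CCL5 had 0.94 and IFIT2 0.92. LGALS9 had 73.5 normalised reads in DDX3Yoe AAVS1 replicate 2 and 55.2 in the library labelled DDX3Xoe AAVS1 replicate 1, its lowest values, as APOL1 had.

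The listed neighbours on chromosome 22 were mostly lower with guide 395 in parental cells, without passing the test. Of 16 protein-coding genes listed on either side and between APOL6 and APOL3, 10 were tested, 2 of them were above 0 in parental cells, and their median log2 difference was -0.61 against 0.017 over all genes. MYH9, the non-muscle myosin gene next to APOL1, had 2462 ± 800 normalised reads with AAVS1 and 1451 ± 442 with 395 (log2 difference -0.75). RBFOX2, the splicing factor gene between APOL6 and APOL3, differed by 0.07. EIF3D, a subunit of translation initiation factor eIF3, differed by -0.64, and TXN2, mitochondrial thioredoxin, by -0.64. In DDX3Xoe and DDX3Yoe cells the neighbours' medians were 0.015 and -0.18, and the first was -0.17 without the pair labelled replicate 1. None of the 10 was called in any of the 3 kinds of cells.

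Outside the 5 members, APOL5 was at 0 reads in all 18 libraries. APOLD1, a related endothelial gene outside the cluster, had 53.9 ± 15.8 normalised reads with AAVS1 and 45.8 ± 7.41 with 395 in parental cells, a log2 difference of -0.20. Genes listed for links to APOL proteins, such as those of the lipoprotein particle and of vesicle transport, had both directions. In parental cells 3 of 5 tested were above 0, with a median of 0.10. HPR, haptoglobin-related protein of the trypanosome lytic particle, was at 0 in all libraries. NCALD, the calcium sensor neurocalcin delta, had 374 ± 234 normalised reads with AAVS1 and 172 ± 87.1 with 395, a log2 difference of -1.01 that was not called. ARF1, a vesicle coat GTPase, differed by 0.10, PI4KB, a lipid kinase, by 0.25, and VAMP8, a vesicle fusion protein, by -0.04.

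At the start of the interferon pathway, 15 interferon and receptor genes were listed. Of these 7 were tested, IFNL1 and 6 receptor chains, none was called, and their median in parental cells was 0.085. IFNAR1 and IFNAR2, the chains of the type I receptor, differed by -0.45 and 0.085, IFNGR2, a chain of the interferon gamma receptor, by 0.046, and IL10RB, a chain of the interferon lambda receptor, by -0.17. The remaining chains, IFNGR1 and IFNLR1, differed by 0.58 and 1.10. Transcripts of IFNA1, IFNA2, IFNK and IFNG were at 0 in every library. IFNL1 and IFNB1, named here after their values were seen, were detected at low level. IFNL1 had 5.4, 0 and 6.7 normalised reads with AAVS1 and 81.8, 9.8 and 41.7 with 395 in parental cells, and at most 10.7 in the other cells. IFNB1 had 15.4, 0 and 0 against 73.0, 0.98 and 0, so that only the libraries numbered 1 held more than a trace in parental cells.

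Among 14 tested genes of JAK, STAT and IRF signalling 12 were above 0 in parental cells, with a median log2 difference of 0.60, and 2 were called higher and 0 lower. Over all genes 0.978% were called higher and 0.801% lower in this contrast, the one that also chose the APOL genes. The called genes were JAK2, a tyrosine kinase bound to cytokine receptors, with 198 ± 49.3 and 629 ± 100 normalised reads (log2 difference 1.69), and IRF7, a factor of interferon genes, with 860 ± 513 and 3611 ± 752 (2.21). IRF7 had 690, 454 and 1437 normalised reads in the AAVS1 libraries and 4289, 2802 and 3742 in the 395 libraries, with the third AAVS1 library high as for APOL1. STAT2 differed by 0.38, STAT3 by -0.23 and the feedback inhibitor SOCS3 by 1.03, none called. In DDX3Xoe and DDX3Yoe cells the medians of the list were 0.28 and 0.30 and none was called. The DDX3Xoe median was 0.14 without the pair labelled replicate 1 and -0.12 without the AAVS1 library of that pair alone.

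**Figure D4:**
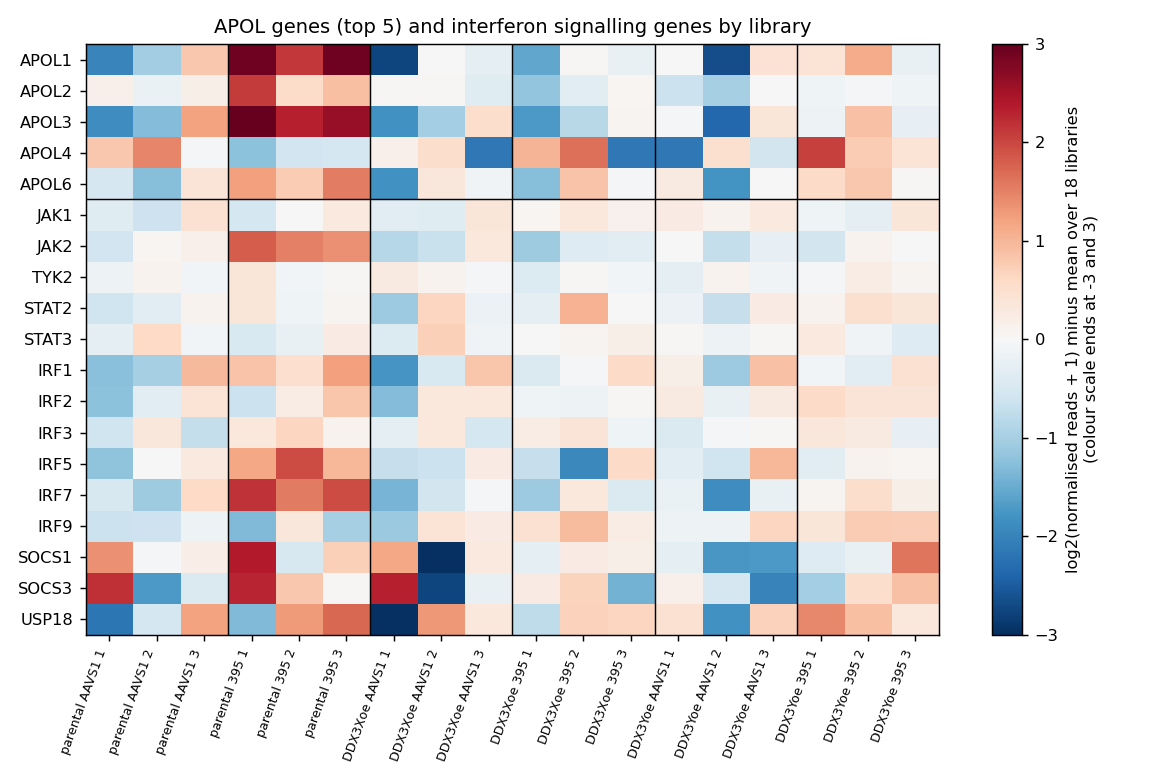
Log2 of normalised reads plus 1, minus the mean over the 18 libraries, for the APOL genes (top 5 rows) and 14 tested JAK, STAT and IRF genes in each library; red is above the gene's mean and blue below, and colours end at -3 and 3. APOL1, APOL3, JAK2 and IRF7 are red in the 3 parental libraries with guide 395, and APOL1, APOL6 and IRF7 are blue in DDX3Yoe AAVS1 replicate 2 and the library labelled DDX3Xoe AAVS1 replicate 1.

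Interferon target genes outside the family had the same sign as APOL1 in parental cells in most cases. Of 20 type I interferon targets tested, 20 were above 0 with a median of 2.04, and 2 were called higher, IFIT2 (2108 ± 1654 with AAVS1 and 16444 ± 3840 normalised reads with 395) and IFI27 (339 ± 188 and 3123 ± 869). IFI6, a mitochondrial protein, and IFIT1, which binds viral RNA ends, each differed by 1.62 without being called. Of 17 tested interferon gamma targets 16 were above 0, with a median of 1.64, and 3 were called higher. These were TAP1 and TAP2, which form the peptide transporter of antigen presentation (2.07 and 2.23), and CD274, the checkpoint ligand PD-L1 (2.73). B2M, the light chain of MHC class I, differed by 1.61 and PSMB9 by 1.64, neither called. A further fit took the replicate number as a block, with an effect of each number shared by all kinds of cells. It does not pair the parental libraries by themselves. In that fit 5 gamma targets were called higher (CXCL11 and IDO1 in addition) and 4 type I targets (MX2 and OASL in addition). Of all genes 336 were called higher and 341 lower, in place of 149 and 122.

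In the other cells none of these targets was called. The 20 type I targets were again all above 0, with medians of 0.68 in DDX3Xoe and 1.34 in DDX3Yoe cells, against -0.016 and -0.0021 over all genes. The gamma targets had medians of 0.40 and 0.56. The median of the 5 APOL genes was 0.37 in DDX3Xoe and 0.98 in DDX3Yoe cells and 1.63 in parental cells. Without the pair labelled DDX3Xoe replicate 1 the DDX3Xoe medians were 0.55 for type I targets, 0.31 for gamma targets and 0.058 for the APOL genes. Without its AAVS1 library alone they were 0.10, -0.23 and -0.32, and 13 of the 20 type I targets were above 0. Without DDX3Yoe AAVS1 replicate 2 the DDX3Yoe medians were 0.43, 0.19 and 0.23 in the same order, with all 20 type I targets above 0. DDX3Yoe AAVS1 replicate 2, the library lowest in APOL6 after the one labelled DDX3Xoe AAVS1 replicate 1, had the lowest IRF7 of all, 263 normalised reads, and the lowest TAP1, 369. The library labelled DDX3Xoe AAVS1 replicate 1 had 362 for IRF7 and the lowest GBP1, a guanylate-binding protein induced by interferon gamma, at 405. The part of these libraries' interferon target level in the APOL differences was not tested apart from the values without them given above.

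Of 10 listed markers of neural and glial cells 7 passed the filter on low values, and these had reads in every group. The summed level over the 10 genes was between 34043 and 75325 normalised reads, led by VIM and SOX2. OLIG2 and S100B were at 0 in all libraries, and CSPG4, at 5.27 or less, did not pass the filter. NES, nestin, was called lower in parental cells with 395 (682 ± 108 to 212 ± 59.0). Endothelial markers, 8 genes with CLDN5 at 0, summed to 16.1 to 103 normalised reads, and to 38.9 to 50.9 with AAVS1 against 24.0 to 43.1 with 395 in parental cells. Immune markers, 9 genes with CD3D and MS4A1 at 0, summed to 1.29 to 24.3, with 2.01 to 19.0 against 5.90 to 6.26 in parental cells, and none passed the filter.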

How the data were processed

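RNA libraries of 18 KNS-42 samples were made with a 3' tag kit, per the labels' protocols. The authors deposited 1 table of normalised counts, a signal obtained by dividing gene counts by a size factor per library. Dividing by the value of 1 read gave whole numbers for 100% of values within 0.01. Build GRCh38, featureCounts 1.5.1, limma, RSEM 1.3.0 and STAR 2.5.2b are listed, per the submitters' processing notes, with no word on which made the table, and the strand setting was not given in the sources used here. Symbols and positions came from GENCODE 29, which held 57446 of 58050 identifiers.

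Groups came from the labels. Values were tested as log2(normalised value + 1), a scale that understates changes of low genes, with limma 3.58.1 in R 4.3.3: 6 group means over 18 libraries, 12 residual degrees of freedom, moderation with an intensity trend, and Benjamini-Hochberg adjustment over the 15228 genes that reached 10 normalised reads in 3 or more libraries. A gene was called at an adjusted p under 0.05. The 5 comparisons in which members were tested use no parental libraries in the contrast, though these enter the shared estimate of spread. Genes other than the members were also called in the parental guide contrast. The members, gene lists and tests were chosen with earlier results of these data known. Besides the members, the rule named up to 4 tested genes of highest mean in each list and the 5 genes most like APOL1 by each of 2 correlations. Called genes of a list and genes with per-library values beyond these were named after their values were seen. The fit was tested on simulated data, with the same spread setting for every gene and no replicate effects. That test does not measure the power for genes as variable as APOL1 and APOL3. Some genes of the lists are not reported here and stand in no list count.

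Same-numbered libraries' deviations from group means correlated at 0.57, 0.20 and 0.28 in parental cells. The values were 0.23, -0.028 and 0.30 in DDX3Xoe and 0.075, 0.11 and 0.24 in DDX3Yoe cells. Libraries of different numbers were not compared in this way, so these values do not settle whether the numbers pair libraries in any of the lines. The main fit used no pairing. Alternatives were other pseudocounts and filters, median-centring, quantile normalisation, no trend, only the compared groups, a replicate block, leaving out each library, and edgeR 4.0.16 and DESeq2 1.42.0 on the recovered reads. Leaving out both libraries labelled DDX3Xoe replicate 1, and list medians without libraries, were added after seeing the data.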

Additional observations from a re-analysis of the deposited data

How the results depend on the processing

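Over all alternatives 0 APOL genes were called in the 5 tested comparisons, in each of 96 counts, and the lowest adjusted p was 0.932. Over the whole table no gene was called in these comparisons either, except without the filter on low values, with at most 3. The 0 is therefore no result about the family. Of 475 single log2 differences 446 kept their direction and 29 did not. With the replicate number as a block the differences were the same by construction (APOL1 in DDX3Yoe cells 1.19, adjusted p 1.00) and no call changed. Leaving out both libraries labelled DDX3Xoe replicate 1 turned APOL2 in DDX3Xoe cells to 0.038 and, for DDX3Yoe minus DDX3Xoe under AAVS1, APOL1 to -0.60, APOL3 to -0.43, APOL4 to 0.073 and APOL6 to -0.63; the cause was not tested. Leaving out single libraries moved the DDX3Xoe guide difference from -0.43 to 0.96 for APOL1, -0.58 to 0.58 for APOL3, -0.16 to 1.83 for APOL4 and -0.27 to 0.93 for APOL6. It moved the difference between the lines' guide effects from -0.21 to 1.62 for APOL1, -0.0028 to 1.99 for APOL4 and -0.039 to 1.26 for APOL6. Under AAVS1 the line difference ran from -0.60 to 1.22 for APOL1, -0.43 to 0.94 for APOL3, -1.08 to 0.45 for APOL4 and -0.63 to 0.67 for APOL6, and under 395 from -0.25 to 1.64 for APOL4. The parental differences, not tested, ran from 2.77 to 4.17 for APOL1, 0.68 to 1.45 for APOL2, 2.81 to 4.34 for APOL3, -1.91 to -1.17 for APOL4 and 1.22 to 2.06 for APOL6. Parental genes called higher and lower over the whole table, 149 and 122, became 336 and 341 with the block, 445 and 482 in DESeq2 and 66 and 17 with only the parental groups fitted. With a filter of 50, APOL4 was not among the genes tested. Depth limits APOL4, at 18 reads or fewer per library.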
